A study of Mus musculus with 8 samples.

Results

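The genes that coat, fuse and assemble lipid droplets were examined in brown adipose tissue (BAT): the perilipins Plin1 to Plin5, the CIDE genes Cidea and Cidec, the FIT genes Fitm1 and Fitm2, and Bscl2, which encodes seipin. They were taken from the deposited count table by gene symbol, as 10 of its 31053 Ensembl genes, and 9 of them were among the 8930 genes with enough counts to be tested. The BAT transcriptome was measured by bulk RNA-seq in 4 WT mice and in 4 Ucp1Δ/Δ mice, labelled ATGLKO, in which a Cre recombinase driven by Ucp1 deletes the floxed Pnpla2 gene. Pnpla2 encodes ATGL, the lipase that starts triglyceride breakdown at the droplet. The mice were C57BL6/J males and 10 weeks old by the sample labels. A younger age is given for this experiment in the study's own description. The labels do not say whether the WT mice carried floxed alleles or Cre, and they give no diet or treatment. Because the Cre is driven by Ucp1, the deletion is aimed at thermogenic adipocytes, and the other cells of the tissue keep the gene.

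As cell type the labels give the stromal vascular fraction, which should lack mature adipocytes, but the adipocyte markers were abundant in these libraries. Ucp1, the uncoupling protein of brown adipocytes, averaged 2719 CPM (counts scaled to the library size) and Adipoq, the gene of adiponectin, 1087 CPM in WT mice. Total counts ranged from 2017697 to 3115956 per mouse in WT and from 2240612 to 2941799 in Ucp1Δ/Δ mice, and 3 counts corresponded to 0.933 to 1.53 CPM. RNA of other cell types differed widely between mice. The summed level of 12 skeletal muscle markers was 1890, 129, 29.4 and 887 CPM in WT mice 1 to 4 and 454, 2681, 91.1 and 1183 CPM in Ucp1Δ/Δ mice 1 to 4. WT mice 1 and 4 and Ucp1Δ/Δ mice 2 and 4 had the highest levels and are called rich in muscle markers below. The other 4 mice were not alike. In mean log2 CPM of the 11 markers tested, Ucp1Δ/Δ mouse 1 (4.89) lay nearer to WT mouse 4 (5.82) than to WT mouse 2 (3.30). It stays in the analyses that leave the 4 mice out. The summed level of 13 macrophage markers was 107 to 166 CPM in WT and 1094 to 1852 CPM in Ucp1Δ/Δ mice, and all 11 of these markers that were tested were higher, among them Gpnmb, Csf1r, Lyz2 and Cd68 (log2FC 5.44, 2.83, 3.67 and 4.64). Stromal markers, from 290 to 368 CPM in WT and from 673 to 1121 CPM in Ucp1Δ/Δ mice, were higher for 6 of 7 tested, among them Col1a1, Dpt, Dcn and Lum (log2FC 2.39, 1.6, 1.27 and 2.23). In bulk tissue, fewer cells of a type and less RNA per cell cannot be told apart, and this holds for every level given here.

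A lipid droplet is a core of triglyceride under a single layer of phospholipid, and it grows from the endoplasmic reticulum (ER). Seipin sits where the droplet buds and the FIT proteins act on the ER membrane so that the droplet can leave it. Perilipins cover the surface and set how lipases reach the core. Perilipin 1 is the main coat of adipocytes and holds the ATGL co-activator ABHD5 (CGI-58) until adrenergic stimulation releases it. Perilipin 5 ties droplets to mitochondria in oxidative tissues, whereas perilipins 2 and 3 are found in most cells, macrophages included. CIDEA and CIDEC gather at contacts between droplets and pass lipid from the smaller to the larger. Cidea is highly expressed in brown adipocytes, whose droplets are many and small.

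The region before the start of a gene holds part of the sequence that controls its transcription, and it is shown here for 4 of the genes. They are Plin1 and Cidec, which were lower, Plin3, which was higher, and Plin2, which passed the test in neither direction. The Plin3 sequence lies before a RefSeq start that is inside the gene as the GENCODE annotation draws it, and not before the outermost start. The sequences are from RefSeq (build GRCm38.p6), are written 5′ to 3′ on the strand of the gene, and leave out bases that the annotation places in an exon. For Plin1 the bases nearest the start are left out in this way, and its printed stretch of 123 bases ends 128 bases before the RefSeq start. The Plin1 sequence is chr7:79732904-79733026, the Plin2 sequence chr4:86670061-86670309, the Plin3 sequence chr17:56290512-56290761 and the Cidec sequence chr6:113435761-113436010, all on the minus strand. Capitals mark matches, on either strand, to the CCAAT box (CCAAT), the GC box (GGGCGG) and the nuclear receptor half-site (AGGTCA).
Plin1: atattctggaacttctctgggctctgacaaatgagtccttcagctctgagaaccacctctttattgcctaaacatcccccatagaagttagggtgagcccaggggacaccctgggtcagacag
Plin2: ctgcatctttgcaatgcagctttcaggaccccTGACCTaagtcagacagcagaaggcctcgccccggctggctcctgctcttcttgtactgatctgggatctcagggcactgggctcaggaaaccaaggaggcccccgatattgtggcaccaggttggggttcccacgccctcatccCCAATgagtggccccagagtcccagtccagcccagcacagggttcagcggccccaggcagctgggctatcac
Plin3: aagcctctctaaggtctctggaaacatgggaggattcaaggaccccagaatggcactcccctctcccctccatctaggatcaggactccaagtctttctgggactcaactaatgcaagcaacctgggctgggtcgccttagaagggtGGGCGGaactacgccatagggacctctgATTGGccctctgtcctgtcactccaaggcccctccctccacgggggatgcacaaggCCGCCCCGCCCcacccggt
Cidec: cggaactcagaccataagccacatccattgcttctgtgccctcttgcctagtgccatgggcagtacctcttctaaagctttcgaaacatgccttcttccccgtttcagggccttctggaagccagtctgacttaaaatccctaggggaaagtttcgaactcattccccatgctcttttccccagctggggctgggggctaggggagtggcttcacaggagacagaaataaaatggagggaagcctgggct
With positions counted back from the start to the first printed base of a match, Plin3 held a CCAAT box on the opposite strand 75 bases before the start, and its GC boxes lay 103, 19 and 14 bases before it, the nearer 2 sharing 1 base. In Plin2, a CCAAT box lay 73 bases and a half-site on the opposite strand 218 bases before the start. The printed stretches of Plin1 and Cidec held no match to these motifs, to the TATA box (TATAAA) or to the E-box (CACGTG). The full Plin1 window of 250 bases held none either. This did not hold for all lower genes. Bscl2, which was also lower and is not printed, held CCAAT boxes on the opposite strand 187 and 69 bases before 1 start. It held a half-site 202 bases before another start. RefSeq windows of 250 bases were found for 9 of the 10 genes (not Cidea), 13 windows in all, since some genes have several starts. Of these 13 windows, 5 held a CCAAT box, 4 a GC box, 3 a half-site and 0 a TATA box or an E-box, whereas 33.8%, 32.7%, 14%, 12.4% and 6.02% of all 32851 windows held them. These matches describe letters and were not tested as binding sites.

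Pnpla2, the deleted gene, was measured first because it checks the labels. Its level was 2837, 2702, 2961 and 3152 CPM in WT mice 1 to 4 and 514, 448, 403 and 531 CPM in Ucp1Δ/Δ mice 1 to 4. Every Ucp1Δ/Δ mouse lay far below every WT mouse (log2FC −2.62, standard error 0.17, adjusted p = 1.97e-07, quasi-likelihood test in edgeR, Benjamini-Hochberg adjusted over all genes tested).

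Among the 9 droplet genes tested, 4 were lower in Ucp1Δ/Δ mice at an adjusted p under 0.05 (Plin1, Cidea, Cidec and Bscl2), 1 was higher (Plin3) and 4 passed in neither direction (Plin2, Plin4, Plin5 and Fitm2). In the same comparison, 7.63% of all genes tested were lower and 13.3% were higher. The mice of the 2 genotypes did not overlap for 4 of the 9 genes (Plin1, Plin4, Cidea and Bscl2), beside 23.7% of all genes tested. The median log2FC of the 9 genes was −0.21, against −0.01 for all genes tested. The plot of the genotype differences shows the 4 lower genes well to the left of 0 and the perilipins other than Plin1 on both sides of it.

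**Figure D1:**
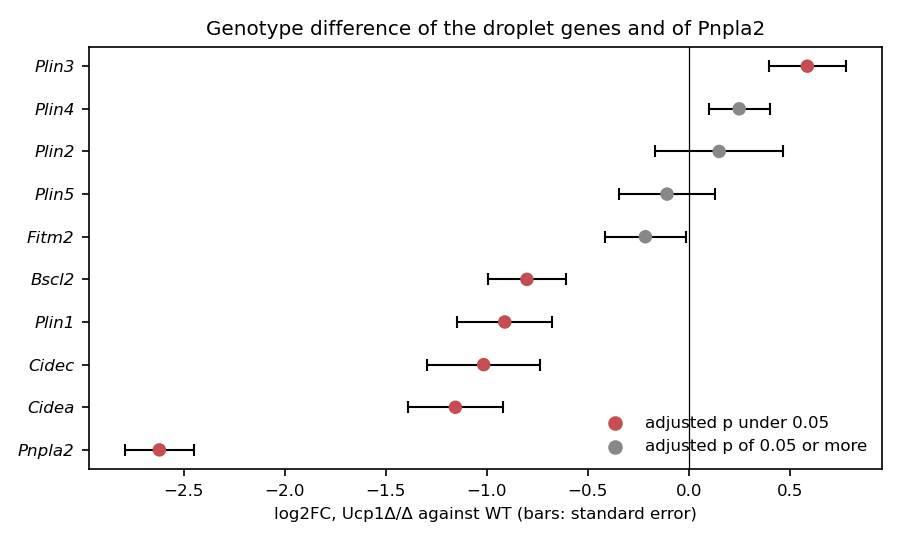
Log2FC of Ucp1Δ/Δ against WT mice (x axis) for the 9 droplet genes tested and for Pnpla2 (y axis), with standard errors as bars and 4 mice per genotype. Red points have an adjusted p under 0.05 from edgeR, and they include 4 lower droplet genes, from −0.80 for Bscl2 to −1.16 for Cidea, and 1 higher gene, Plin3, at 0.59.

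Plin1 (ENSMUSG00000030546), the gene of the adipocyte coat protein, lies on the minus strand of chromosome 7 of mm10 from 79720218 to 79732903. Its level was 424, 869, 712 and 487 CPM in WT mice 1 to 4 and 391, 257, 407 and 272 CPM in Ucp1Δ/Δ mice 1 to 4. The highest Ucp1Δ/Δ mouse lay just under the lowest WT mouse, and within each genotype the mice richest in muscle markers had the lower levels. The mean was 623 ± 205 CPM in WT and 332 ± 78.1 CPM in Ucp1Δ/Δ mice (SD, n = 4), and the log2FC was −0.91 ± 0.23 (SE, adjusted p = 0.0113 in edgeR). Without the 4 mice rich in muscle markers, the log2FC was −0.97 (adjusted p = 0.00835 from edgeR, 2 mice against 2).

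Plin2 (ENSMUSG00000028494), on chromosome 4 from 86648386 to 86670060, encodes the coat protein that most cells place on their droplets. Its level was 535, 1189, 976 and 429 CPM in WT mice 1 to 4 and 1433, 724, 731 and 588 CPM in Ucp1Δ/Δ mice 1 to 4. Ucp1Δ/Δ mouse 1 was the highest of all 8, the other 3 lay inside the WT range, and the genotypes overlapped. The means were 783 ± 360 and 869 ± 381 CPM (SD, n = 4), and the log2FC of 0.15 (95% interval −0.47 to 0.77, adjusted p = 0.788 from edgeR) did not exceed the spread between mice. Without Ucp1Δ/Δ mouse 1 the log2FC was −0.19.

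Plin3 (ENSMUSG00000024197), on chromosome 17 from 56277476 to 56292873, encodes a coat protein that also occurs free in the cytosol and moves to young droplets. Its level was 88.7, 97.7, 75.1 and 61.8 CPM in WT mice 1 to 4 and 149, 113, 127 and 97.0 CPM in Ucp1Δ/Δ mice 1 to 4. The groups overlapped only where the lowest Ucp1Δ/Δ mouse met the highest WT mouse. The mean rose from 80.8 ± 15.7 to 121 ± 22.2 CPM (SD, n = 4), and the log2FC was 0.59 ± 0.19 (SE, adjusted p = 0.0399 in edgeR). This call lay near the threshold: the log2FC stayed between 0.47 and 0.72 in 19 alternative analyses, and the adjusted p was 0.05 or more in 9 of them, among them those without WT mouse 1 (0.0646), 3 (0.114) or 4 (0.0915) and without Ucp1Δ/Δ mouse 1 (0.115), 2 (0.0615) or 3 (0.0750). Macrophage markers moved with genotype in the same mice, and the share of Plin2 and Plin3 reads from macrophages cannot be told apart from that of adipocytes in these libraries.

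Plin4 (ENSMUSG00000002831), on chromosome 17 from 56100591 to 56109803, encodes a coat protein of white adipocytes and muscle. Its level was 267, 271, 260 and 245 CPM in WT mice 1 to 4 and 311, 318, 339 and 271 CPM in Ucp1Δ/Δ mice 1 to 4. The genotypes did not overlap, but Ucp1Δ/Δ mouse 4 and WT mouse 2 met at 271 CPM. The WT mice spanned a narrow range (261 ± 11.5 against 310 ± 28.4 CPM, SD, n = 4), and the log2FC of 0.25 (95% interval −0.05 to 0.55, adjusted p = 0.276 from edgeR) did not pass the test. Its exons share 17 bases with Hdgfl2 on the opposite strand, and the counting is not stated to use strand.

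Plin5 (ENSMUSG00000011305), the neighbour of Plin4 on chromosome 17 from 56111601 to 56117596, encodes the coat protein of oxidative tissues. Its level was 248, 379, 417 and 181 CPM in WT mice 1 to 4 and 333, 222, 280 and 304 CPM in Ucp1Δ/Δ mice 1 to 4. All 4 Ucp1Δ/Δ mice lay inside the WT range. The means were 307 ± 111 and 285 ± 47.1 CPM (SD, n = 4), with a log2FC of −0.11 (95% interval −0.57 to 0.35, adjusted p = 0.798 from edgeR).

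**Figure D2:**
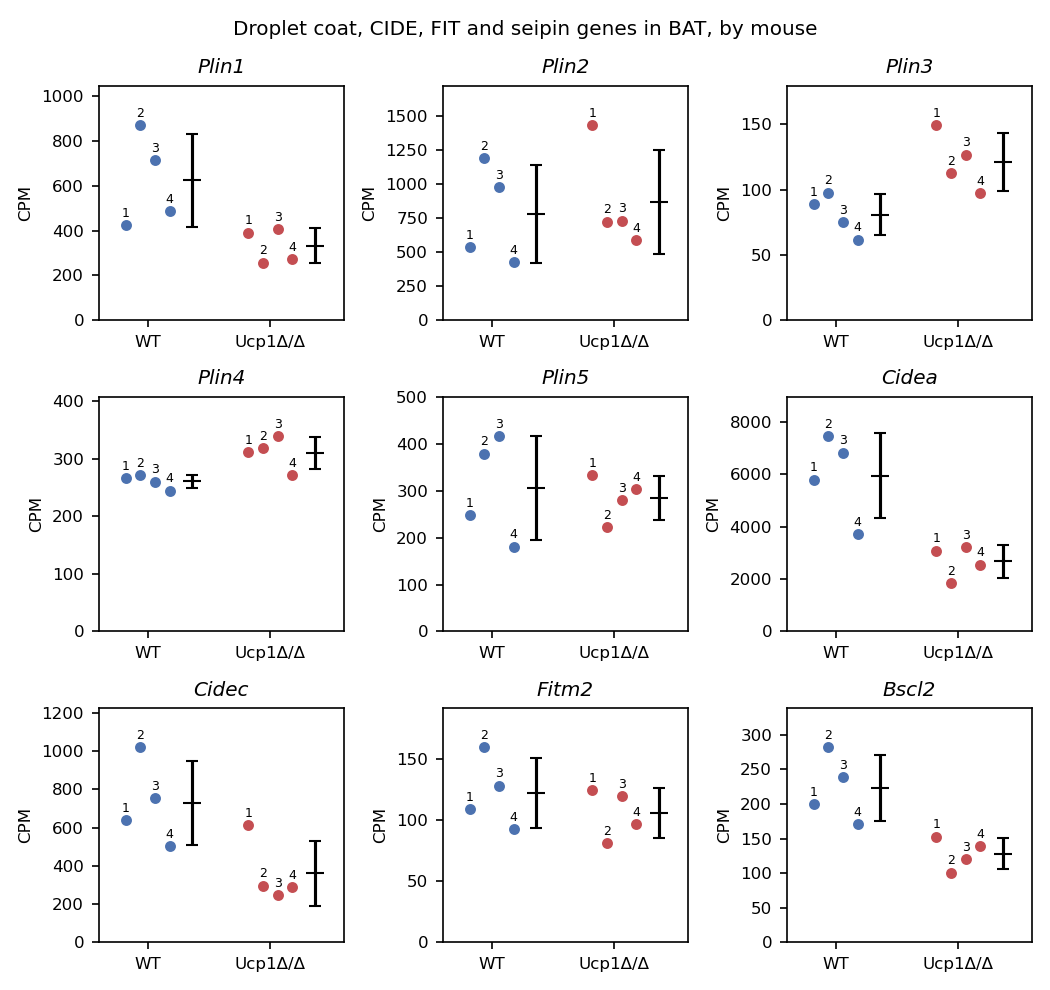
Level in CPM (y axes, from 0) of the 9 droplet genes tested in WT (blue) and Ucp1Δ/Δ (red) mice, with 1 numbered point per mouse and the mean ± SD of 4 mice in black. Plin1, Cidea and Bscl2 lie lower in every Ucp1Δ/Δ mouse than in every WT mouse, Cidec in all but Ucp1Δ/Δ mouse 1, and the groups overlap for Plin2, Plin3, Plin5, Cidec and Fitm2.

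The balance between coat genes was compared within each mouse, since the scaling of a library cancels in a ratio of 2 genes and gene length cancels when that ratio is compared between genotypes. The log2 ratio of Plin2 to Plin1 was 0.34, 0.45, 0.46 and −0.18 in WT mice 1 to 4 and 1.87, 1.49, 0.85 and 1.11 in Ucp1Δ/Δ mice 1 to 4. Every Ucp1Δ/Δ mouse thus held more Plin2 relative to Plin1 than any WT mouse, a difference of 1.06 on the log2 scale or 2.09-fold. The ratio to Plin1 was higher by 2.76-fold for Plin3, 2.18-fold for Plin4 and 1.79-fold for Plin5, again without overlap. Each of these 4 differences had p = 0.0286 in a two-sided exact permutation test, the smallest that 4 mice against 4 allow, and 0.04 after Benjamini-Hochberg adjustment over the 7 pairs compared. The 4 ratios share Plin1 as the denominator and are not independent of each other. In contrast, the log2 ratio of Plin2 to Plin5 differed by 0.23 with overlap (exact permutation p = 0.457).

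As a share of all perilipin CPM, Plin1 made up 30.5 ± 3.20% in WT and 17.5 ± 2.97% in Ucp1Δ/Δ mice (SD, n = 4) and the genotypes did not overlap. Plin3 made up 4.16 ± 1.15% and 6.41 ± 0.53%, also without overlap. Plin2 held the largest mean share in both genotypes, 36.8 ± 5.38% and 44.1 ± 7.61%. The shares of Plin4 and Plin5 overlapped between genotypes, at 13.7% and 16.8% for Plin4 and at 14.8% and 15.3% for Plin5.

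Cidea (ENSMUSG00000024526), on the plus strand of chromosome 18 from 67343604 to 67367785, was the most abundant of the 10 genes. Its level was 5791, 7455, 6824 and 3723 CPM in WT mice 1 to 4 and 3087, 1841, 3208 and 2548 CPM in Ucp1Δ/Δ mice 1 to 4. The genotypes did not overlap, and the highest Ucp1Δ/Δ mouse stayed under WT mouse 4, the lowest of its group. The mean was 5948 ± 1634 CPM in WT and 2671 ± 623 CPM in Ucp1Δ/Δ mice (SD, n = 4), a 2.23-fold lower level (log2FC −1.16, standard error 0.23, adjusted p = 0.00211 from edgeR). Without the 4 mice rich in muscle markers the log2FC was −1.17 (adjusted p = 0.00139 from edgeR).

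Cidec (ENSMUSG00000030278), on the minus strand of chromosome 6 from 113424634 to 113435760, encodes the CIDE protein associated with large unilocular droplets. Its level was 638, 1022, 756 and 502 CPM in WT mice 1 to 4 and 613, 296, 246 and 289 CPM in Ucp1Δ/Δ mice 1 to 4. Ucp1Δ/Δ mouse 1 lay within the WT range, and the other 3 lay below all WT mice. The mean fell from 729 ± 221 to 361 ± 169 CPM (SD, n = 4), and the log2FC was −1.01 ± 0.28 (SE, adjusted p = 0.0163 in edgeR). The call was lost without Ucp1Δ/Δ mouse 2 (adjusted p = 0.0645), mouse 3 (0.0558) or mouse 4 (0.0612) and without the 4 mice rich in muscle markers (0.0712, all from edgeR), with the log2FC between −1.03 and −0.85 in these 4 analyses. The log2 ratio of Cidea to Cidec was 3.03 ± 0.17 in WT and 2.95 ± 0.60 in Ucp1Δ/Δ mice (SD, n = 4), so that a difference in the size of their changes was not detected (difference −0.08, exact permutation p = 0.743).

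**Figure D3:**
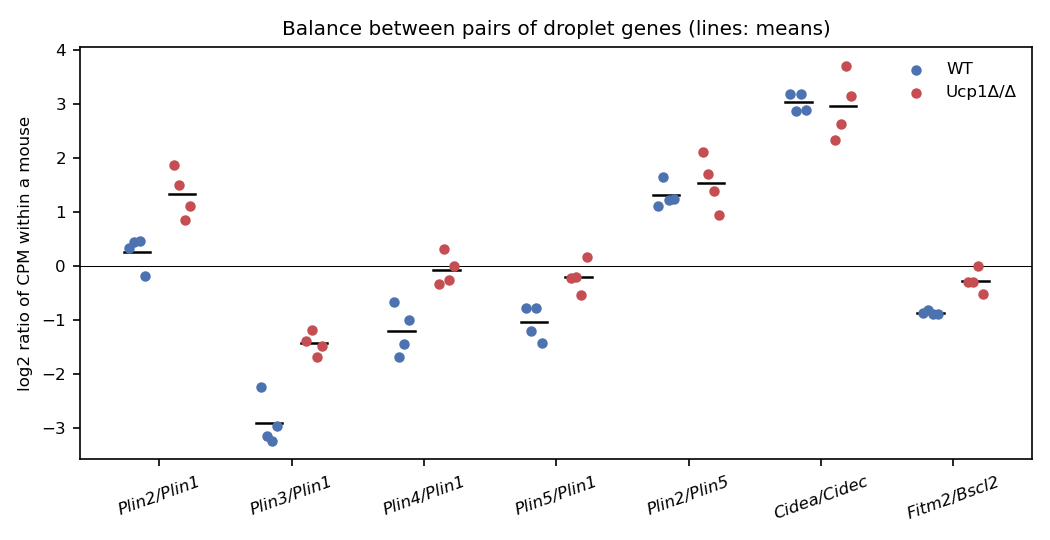
Log2 ratio of CPM (y axis) for 7 pairs of droplet genes (x axis) within each WT (blue) and Ucp1Δ/Δ (red) mouse, with lines at the mean of 4 mice. The 4 ratios to Plin1 and the ratio of Fitm2 to Bscl2 lie higher in every Ucp1Δ/Δ mouse, whereas Plin2/Plin5 and Cidea/Cidec overlap.

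Among the genes of droplet assembly, Bscl2 (ENSMUSG00000071657), on the plus strand of chromosome 19 from 8837467 to 8848683, was lower in Ucp1Δ/Δ mice. Its level was 200, 282, 239 and 171 CPM in WT mice 1 to 4 and 153, 101, 120 and 139 CPM in Ucp1Δ/Δ mice 1 to 4. The genotypes did not overlap, and the mean was 223 ± 48.3 CPM in WT and 128 ± 22.6 CPM in Ucp1Δ/Δ mice (SD, n = 4), and the log2FC was −0.80 ± 0.19 (SE, adjusted p = 0.00774 in edgeR). Its exons share 398 bases with Gng3 on the opposite strand, which had at most 2 counts in any mouse, and 239 bases with a second annotated gene on the same strand that the table does not list.

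Fitm2 (ENSMUSG00000048486), on chromosome 2 from 163466379 to 163472629, encodes the FIT protein of adipose tissue. Its level was 109, 160, 128 and 92.7 CPM in WT mice 1 to 4 and 125, 81.5, 120 and 96.6 CPM in Ucp1Δ/Δ mice 1 to 4. The genotypes overlapped, and the log2FC was −0.21 (95% interval −0.61 to 0.18, adjusted p = 0.506 from edgeR). Within each mouse the log2 ratio of Fitm2 to Bscl2 was −0.86 ± 0.03 in WT and −0.28 ± 0.21 in Ucp1Δ/Δ mice (SD, n = 4), a 1.5-fold higher ratio without overlap (exact permutation p = 0.0286, adjusted over the 7 pairs 0.04). Fitm1 (ENSMUSG00000022215), on chromosome 14 from 55575617 to 55576954, is the FIT gene of skeletal muscle and was not tested because of its low counts. It had 2, 0, 0 and 5 counts in WT mice 1 to 4 and 2, 8, 1 and 8 counts in Ucp1Δ/Δ mice 1 to 4. Its highest counts in each genotype fell in mice rich in muscle markers (WT mouse 4 and Ucp1Δ/Δ mice 2 and 4), and a genotype difference was not detectable at this depth.

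Levels between genes were compared per kilobase of exon. In WT mice Cidea stood at 5335 ± 1466 CPM per kilobase (SD, n = 4), followed by Cidec at 393 ± 119, Plin2 at 223 ± 103, Plin5 at 147 ± 53.0 and Plin1 at 134 ± 44.2. The last 3 of these lie within each other's spread. Plin4 (45.1 ± 2.0), Bscl2 (37.8 ± 8.18), Fitm2 (30.9 ± 7.28) and Plin3 (21.4 ± 4.15) followed, and Fitm1 was lowest at 0.915. In Ucp1Δ/Δ mice Cidea was again highest at 2396 ± 559 CPM per kilobase, and Plin2 (247 ± 109) and Cidec (194 ± 91.3) overlapped within their spread. It is not stated whether the libraries hold only the 3′ ends of transcripts, and then division by exon length would rank the genes differently.

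Adipocyte markers also differed by genotype, with a summed level of 8682 to 10364 CPM in WT and 5752 to 7330 CPM in Ucp1Δ/Δ mice. By the test 3 of 9 markers (Slc2a4, Acsl1 and Adipoq) were lower and 6 were not called. Lpl and Cfd, the most abundant of the 9 in WT mice (4636 and 1620 CPM), were among those 6. The log2FC was below 0 for 8 markers and above 0 for 1, Aqp7 (0.53, adjusted p = 0.0639 from edgeR). Because the summed level differed, each droplet gene was also set against the mean log2 CPM of the 9 adipocyte markers in the same mouse. On this scale Plin3 was higher by 1.08 and Plin4 by 0.74 in Ucp1Δ/Δ mice, both without overlap (exact permutation p = 0.0286, not adjusted, 9 genes computed). Cidea differed by −0.64 (exact permutation p = 0.0571), Cidec by −0.57 (0.0857), Plin1 by −0.38 (0.171) and Bscl2 by −0.29 (0.0857), and none of these 4 passed at 0.05. The brown adipocyte markers did not move together: of 7 tested, Elovl3 (log2FC −1.96), Otop1 (−0.83) and Kcnk3 (−0.61) were lower, Dio2 was higher (1.45) and the other 3 were not called, Ucp1 among them (−0.34, adjusted p = 0.481 from edgeR). Relative to these 7 brown adipocyte markers, the differences were −0.89 for Cidea, −0.63 for Plin1, −0.54 for Bscl2 and 0.83 for Plin3 without overlap (exact permutation p = 0.0286). Cidec differed by −0.81 (exact permutation p = 0.0571) and Plin4 by 0.50 (exact permutation p = 0.229) with overlap. These p-values too were not adjusted, with 9 genes computed.

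Within genotypes, the droplet genes varied between mice along with the muscle, brown adipocyte and adipocyte markers to unequal degrees. After the genotype means were removed, Pearson's r over the 8 mice with the mean muscle marker level was −0.88 for Plin1, −0.71 for Cidea, −0.71 for Plin5 and −0.25 for Cidec. With the brown adipocyte markers it was 0.96 for Plin5, 0.93 for Cidea, 0.92 for Fitm2 and 0.36 for Plin4. With the adipocyte markers it was 0.95 for Cidec, 0.89 for Plin2, 0.80 for Plin3 and 0.29 for Plin4. Between the droplet genes themselves r ran from 0.02 (Plin4 and Bscl2) to 0.94 (Cidea and Fitm2). Among the other droplet genes and regulators, the gene most like each was Mgll for Plin1 (0.96), Prdm16 for Plin2 (0.92), Cebpb for Plin3 (0.88), Rab18 for Plin4 (0.94), Gpat3 for Plin5 (0.96) and for Bscl2 (0.93), Hsd17b11 for Cidec (0.91), Opa1 for Fitm2 (0.96) and Fitm2 for Cidea (0.94). These values are descriptions over the same 8 libraries, which share depth and tissue makeup, and each is the highest of 71 genes compared. Gpat3 and Prdm16 had few counts, 5 to 35 and 6 to 55 per mouse, so that counting error weighs more in their r.

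**Figure D4:**
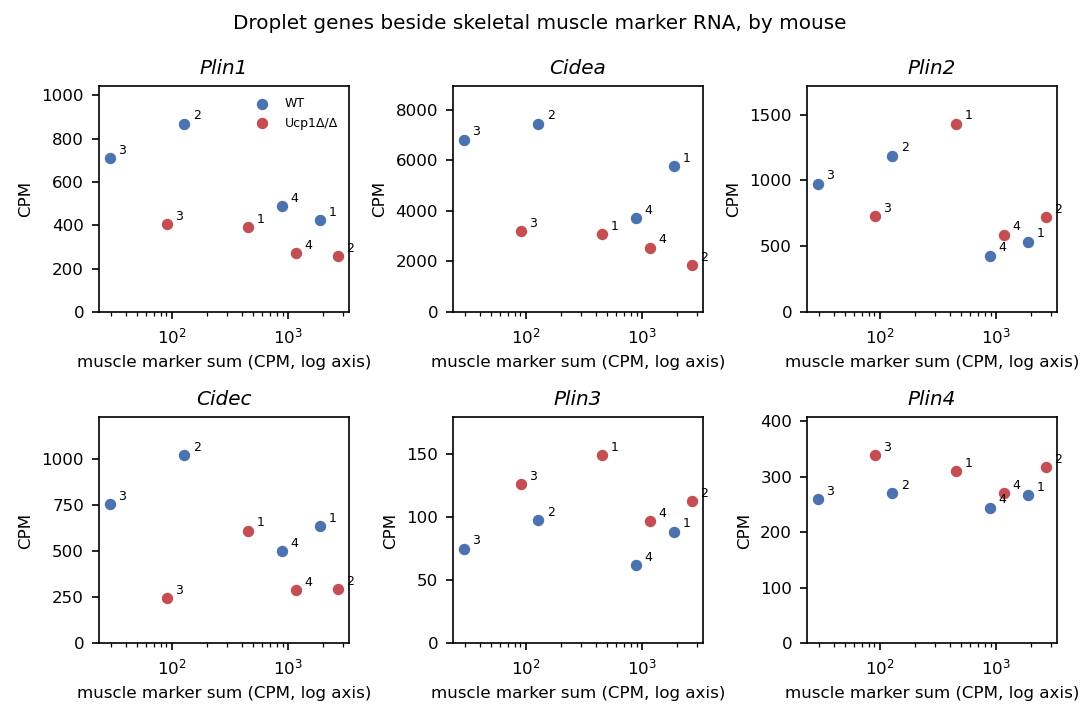
Level in CPM (y axes, from 0) of 6 droplet genes against the summed CPM of the skeletal muscle markers (x axis, log scale) in WT (blue) and Ucp1Δ/Δ (red) mice, numbered by mouse. Plin1 is lower in the muscle-rich mice of both genotypes, while Plin4 lies between 245 and 339 CPM in all 8 mice.

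The other genes of droplet formation were read from 4 lists of 68 genes, of which 67 were matched in the table and 63 tested. The counts of each list stand beside 7.63% lower and 13.3% higher of all genes tested. Of 15 seipin partners and enzymes of triglyceride synthesis at the ER that were tested, 4 were lower and 0 higher (0 higher also at an unadjusted p under 0.05), with a median log2FC of −0.42. They were Agpat2, which makes phosphatidic acid (log2FC −2.19, adjusted p = 5.55e-05), Dgat2, which completes triglyceride (−1.25, 0.000255), Gpat4, which starts glycerolipid synthesis (−0.57, 0.0220), and Aup1, a droplet protein of ER-associated degradation (−0.62, 0.0390, all from edgeR). The calls of Aup1 and Gpat4 were lost in 10 and in 5 of 19 alternative analyses. Aup1 lost its call without WT mouse 2 (adjusted p = 0.0755) or 3 (0.10), without Ucp1Δ/Δ mouse 2 (0.0953), 3 (0.121) or 4 (0.0883) and without the 4 mice rich in muscle markers (0.0602), and Gpat4 without WT mouse 3 (0.0922), without Ucp1Δ/Δ mouse 2 (0.0645) or 4 (0.0648) and without those 4 mice (0.0631, all from edgeR). In the analysis without those 4 mice, with 2 mice against 2, the log2FC was −0.88 for Aup1 and −0.66 for Gpat4. Agpat2 stood at 625 ± 252 CPM in WT and 137 ± 39.9 CPM in Ucp1Δ/Δ mice (SD, n = 4). Dgat1, the other enzyme of the last step, had a log2FC of −0.42 (adjusted p = 0.242 from edgeR).

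Of 25 other droplet surface genes tested, 4 were lower and 3 higher, with a median log2FC of −0.30. The share of higher genes was near the 13.3% of all genes tested, of which 7.63% were lower. Pnpla3, the closest relative of ATGL, was lower (log2FC −2.32, adjusted p = 0.000247), as were Nsdhl, an enzyme of cholesterol synthesis (−1.43, 0.000341), Hilpda, an inhibitor of ATGL (−1.06, 0.00388), and Clstn3 (−1.32, 0.0491, all from edgeR). For Clstn3 the call was lost in 13 of 19 alternative analyses, with an adjusted p of up to 0.211, among them those without WT mouse 2 (0.158) or 3 (0.145) or without any 1 of the Ucp1Δ/Δ mice (0.0798 to 0.15, all from edgeR). Its level was 30.6, 138, 108 and 18.7 CPM in WT mice 1 to 4 and 34.0, 22.1, 33.8 and 30.05 CPM in Ucp1Δ/Δ mice 1 to 4, so that only WT mice 2 and 3 lay above the Ucp1Δ/Δ mice. The 3 higher genes were Spart, which encodes spartin (1.22, 0.00138), Cavin1, a coat protein of caveolae (1.01, 0.00155), and Lpcat1, which remodels phospholipids (1.14, 0.0169, all log2FC and adjusted p from edgeR). Lpcat1 lost its call without Ucp1Δ/Δ mouse 2 (adjusted p = 0.0779) or 4 (0.0552) and without the 4 mice rich in muscle markers (0.266, all from edgeR). In the last of these, with 2 mice against 2, its log2FC was 0.82. Abhd5, the ATGL co-activator that perilipin 1 holds, had a log2FC of −0.31 (adjusted p = 0.282 from edgeR), and G0s2, an ATGL inhibitor, −0.64 (adjusted p = 0.118 from edgeR). Cideb, the CIDE gene of liver, was not tested, at 5.28 ± 4.03 CPM in WT and 3.59 ± 1.97 CPM in Ucp1Δ/Δ mice (SD, n = 4).

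Of 8 genes of droplet contacts with mitochondria, 1 was lower, Miga2 (log2FC −0.85, adjusted p = 0.00263 from edgeR), and 0 were higher (0 also at an unadjusted p under 0.05). Of 15 transcription regulators of droplet genes, 2 were lower and 0 higher (1 higher at an unadjusted p under 0.05). The lower 2 were Ppara, a receptor for fatty acids that drives their oxidation (−1.10, 0.00476), and Esrra, a regulator of mitochondrial genes (−1.38, 0.00611, both from edgeR). Without the 4 mice rich in muscle markers, with 2 mice against 2, the log2FC was −0.85 for Ppara and −1.37 for Esrra. The adjusted p was then 0.163 for Ppara and 0.0547 for Esrra (edgeR). Pparg, the main regulator of adipocyte genes, among them Plin1, Cidea and Cidec, had a log2FC of −0.33 (adjusted p = 0.219 from edgeR). Over the 4 lists 11 genes were lower and 3 higher of 63 tested, beside 7.63% lower and 13.3% higher of all genes tested. With the 4 mice rich in muscle markers left out, 7 were lower. Over all genes the number lower was then 265 of 9295, against 681 of 8930 with all mice.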

How the data were processed

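BAT from 4 WT and from 4 Ucp1Δ/Δ mice, grouped by the sample labels, was profiled by bulk RNA-seq. Per the study's methods, the authors used bbduk for trimming, STAR for alignment to mm10 and HTseq-counts for counting by gene, whereas the submitters' processing notes list Trimmomatic and HISAT2. The authors deposited raw counts, used for all main results, and log2 values, each of which equalled the log2 of the count over a factor per mouse plus 1 and served 1 alternative. The strand setting and annotation release are not given in the sources used here.

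Symbols, positions and exon overlaps came from GENCODE annotation of mm10 (30934 of 31053 identifiers matched). Genes were filtered with filterByExpr and tested on genotype with edgeR 4.0.16 (quasi-likelihood test, TMM scaling, Benjamini-Hochberg adjustment, threshold 0.05) in R 4.3.3, with limma 3.58.1 and DESeq2 1.42.0 as alternatives. Log2 CPM used a prior count of 2, and 95% intervals the log2FC ± 1.96 standard errors. CPM used TMM-scaled totals. Ratios were tested by two-sided exact permutation over mice. The p-values set a genotype difference against the spread between these 8 mice. In edgeR the spread of a gene is moderated by that of the other genes tested, also with 2 mice against 2. Intervals and the floor of 3 counts cover counting error or this spread only. Chi-square per degree of freedom between replicates of a genotype was 5.40 to 27.6, so none was a duplicate. The tests were checked on simulated data.

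The genes named were the 10 droplet genes, Pnpla2, up to 4 genes per direction in each list with the smallest adjusted p under 0.05, and the gene most like each droplet gene. Dgat1, Abhd5, G0s2, Pparg, Cideb and Ucp1 were named for their roles, Lpl and Cfd for their abundance and Aqp7 for its direction. The droplet genes and lists were chosen with earlier results of these data known. Ldaf1 was not matched.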

Additional observations from a re-analysis of the deposited data

Results flagged for a closer look

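Of 54 groups of 4 mice checked for a mouse far from the others, 1 had such a mouse, where chance gives about 1 in 20. In the level of Plin4 relative to the 9 adipocyte markers, WT mouse 2 stood at −0.76, whereas the other 3 WT mice lay between −0.46 and −0.40, so that its gap to the nearest of them was 0.834 of the range of the group. Without this mouse the genotype difference of Plin4 on that scale was 0.66, against 0.74 with it.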

How the results depend on the processing

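Plin1, Cidea and Bscl2 were lower with an adjusted p under 0.05 in all 19 alternative analyses, with log2FC from −1.07 to −0.72, from −1.34 to −1.0 and from −0.92 to −0.67, and Cidec in 15 of 19. The number of droplet genes called higher was 0 instead of 1 with DESeq2 size factors, with limma trend on the deposited log2 values and without the 4 mice rich in muscle markers, where Plin3 still passed at an unadjusted p under 0.05, and ran from 0 to 1 over the leave-one-out analyses. The cause was not tested. The log2FC of Plin2 ran from −0.19 to 0.41 with each mouse left out and was below 0 without WT mouse 1, WT mouse 4 or Ucp1Δ/Δ mouse 1. That of Plin5 was 0.026 with total counts only, 0.068 with the muscle marker level as a covariate, and ran from −0.30 to 0.068 with each mouse left out (above 0 without WT mouse 3 or Ucp1Δ/Δ mouse 2). The difference in the Cidea to Cidec ratio ran from −0.33 to 0.13 with each mouse left out (0.13 without Ucp1Δ/Δ mouse 1 and 0.03 without mouse 2). Of the other droplet genes, 5 were higher with total counts only, a scaling under which the median of all genes was 0.13 rather than −0.01. Without the 4 mice rich in muscle markers 7 of them were lower, beside 265 of all genes tested rather than 681. Of 265 values of the 14 named genes of the other droplet lists under the alternatives, 232 kept their direction and side of the threshold and 33, in 6 genes, lost significance, and of 280 values of the 15 named cell type markers 261 kept both and 19, in Dio2, Kcnk3 and Otop1, lost significance, with 0 reversed in either set. The 2 alternatives on muscle markers were chosen after seeing the data. The labels do not say whether mice with the same replicate number were paired. Their deviations correlated at −0.09, −0.20, 0.30 and 0.24, and mice of unlike numbers were not compared, so these values cannot decide it. With the replicate block 4 droplet genes were lower and 1 higher, with Plin1 at −0.88. Of all genes tested, 1138 were then higher and 581 lower. With 1 mouse left out the exact test cannot go below 0.0571, and at these totals Fitm1 could not be compared.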
